A study of Mus musculus with 6 samples.

Results

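The cytosolic ribosomal protein genes were examined in Tyr-L and Tyr-H cells, both derived from B16, a mouse melanoma line of strain C57BL/6, with 3 mRNA sequencing libraries of each. Members were taken by a rule on names, chosen with earlier results of these data known. A symbol of Rpl or Rps with a number, with or without a following a, l, x or y, the symbols *Rplp0* to *Rplp2* and *Rpsa* were taken, whereas pseudogenes marked -ps and the Rps6k kinases were left out. This gave 78 genes of the 20788 listed in at least 1 library, 47 for the large subunit and 31 for the small subunit. Tyr-L cells were labelled as having low and Tyr-H cells as having high tyrosinase activity, the enzyme activity that starts melanin synthesis from tyrosine. Both were grown in low glucose DMEM with serum, penicillin and streptomycin and received no other treatment by the labels. The cells were selected as subclones from colonies of sparsely plated cells, and it is not given in the sources used here if a group's 3 libraries stem from different cultures or subclones. The p-values therefore measure only the spread between these libraries, which may be technical.

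A cytosolic ribosome is built of a small subunit, which reads the mRNA, and a large subunit, which joins amino acids. Each contains ribosomal RNA and one copy of most of its proteins, so cells make these proteins in matched amounts, and their mRNAs are among the most abundant in growing cells. Many of these mRNAs open with a cytosine followed by a run of pyrimidines, the 5′ terminal oligopyrimidine (TOP) motif, through which the kinase complex mTORC1 and the binding protein LARP1 set how strongly they are translated.

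The tables hold FPKM, which is fragments scaled to transcript length and to library depth, and no counts. The ranking of genes by level depends on the lengths used, which are not given in the sources used here. From the value that a single fragment gives a gene, the depth was estimated at 19000000 to 23000000 fragments per library. Between libraries of a group the median absolute log2 difference of a ribosomal protein gene was 0.03 to 0.17, and between groups it was 0.12 to 0.35. The 7 melanocytic markers were listed in all 6 libraries, and *Tyr* itself, the tyrosinase gene, lay at 9.52 to 10.7 FPKM in Tyr-L against 19.7 to 23.8 FPKM in Tyr-H libraries. The other 6 were lower in Tyr-H cells by limma, with log2 fold changes from -1.85 (*Mitf*) to -0.23 (*Tyrp1*). Of 10 markers of other cells, 6 were listed in no library and the others did not exceed 0.314 FPKM.

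All 78 ribosomal protein genes were listed in all 6 libraries and all were tested. By the GENCODE M21 annotation, 77 are protein coding, and the remaining gene, *Rpl6l*, is annotated as a processed pseudogene and had 1.80 FPKM on average. They lie on 19 chromosomes, with 14 on chromosome 7. Their mean levels had a median of 549 FPKM, 76 reached at least 100 FPKM, and 34 were among the 100 genes with the highest mean level. The highest was *Rplp1* of the large subunit with 1842 FPKM. Next in the large subunit were *Rpl32* with 1254 FPKM and *Rpl10*, a late joining protein of the subunit interface, with 1205 FPKM. In the small subunit *Rps2* (1183 FPKM), *Rps14* (1036 FPKM) and *Rps6* (1023 FPKM) were highest. The lowest of the protein-coding members was *Rps28* with 99.4 FPKM.

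The start regions of some members are shown because TOP motifs are read at the first base of the mRNA. RefSeq promoter sequences of GRCm38.p6 matched 57 of the 78 genes. In 13 of these 57 (22.8%) the annotated start was a C that opened a run of at least 5 pyrimidines (C or T), searched on the gene's own strand only, against 3.01% of all 27025 genes with a promoter sequence. A run of at least 8 pyrimidines within 20 bases on either side of the start was found in 50.9% of the members and 18.4% of all genes. Each line below gives 30 bases before the RefSeq start and the first 20 bases from it, with the run at the start in capitals. The first 2 lines are the reference genes *Rplp0* and *Rps3*, which held no such run at the annotated start. *Rps18*, *Rps10* and *Rplp2* were higher in Tyr-H cells, *Rpl35* was lower, and *Rps27* and *Rps21* passed in neither direction.
Rplp0 (chr5:115559437-115559486, plus strand): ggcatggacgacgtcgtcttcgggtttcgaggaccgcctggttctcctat
Rps3 (chr7:99483690-99483739, minus strand): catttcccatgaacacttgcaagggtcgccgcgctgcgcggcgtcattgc
Rps18 (chr17:33955646-33955695, minus strand): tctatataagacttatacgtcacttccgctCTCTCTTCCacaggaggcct
Rps10 (chr17:27635225-27635274, minus strand): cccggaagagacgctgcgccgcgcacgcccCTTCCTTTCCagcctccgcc
Rplp2 (chr7:141447621-141447670, plus strand): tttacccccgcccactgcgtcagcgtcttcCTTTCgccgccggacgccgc
Rpl35 (chr2:39005112-39005161, minus strand): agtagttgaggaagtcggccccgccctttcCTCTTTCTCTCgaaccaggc
Rps27 (chr3:90213629-90213678, minus strand): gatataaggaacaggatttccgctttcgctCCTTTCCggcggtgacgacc
Rps21 (chr2:180257349-180257398, plus strand): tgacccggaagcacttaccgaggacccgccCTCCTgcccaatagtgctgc

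Most ribosomal protein genes were modestly higher in Tyr-H cells, and none of them doubled in level. On log2(FPKM + 0.1), 51 of 78 were higher and 2, *Rpl35* and *Rps27l*, were lower at an adjusted p of at most 0.05 (limma, Benjamini-Hochberg over 14336 genes), while 25 passed in neither direction. Of all tested genes, 17.9% were higher and 39.9% were lower by the same rule. Once a 2-fold difference was also asked for (1 on the log2 scale), 0 members were called, against 8.75% of all tested genes. An unadjusted p under 0.05 from limma was found in 54 of the 78 members and in 8947 of all 14336 tested genes. In 50 members every Tyr-H library was above every Tyr-L library, which held for 20.2% of all tested genes. In 1 member, *Rpl35*, every Tyr-H library was below, which held for 43.8% of all tested genes. These values are relative to all other mRNA in a library. A different share of expressing cells, a different amount of RNA per cell and a change in other mRNAs cannot be told apart. Without Tyr-H library 3, 43 were higher and 6 lower, the 6 being *Rpl35*, *Rps27l*, *Rps21*, *Rps27*, *Rpl31* and *Rpl39*. Without Tyr-L library 3, 38 were higher and 3 lower, and without any one of the other 4 libraries 1 was lower. In all, 38 of the 51 passed as higher whichever library was omitted. With any one library omitted, 15.5% to 17.2% of all tested genes were higher and 35.7% to 37.1% lower.

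The log2 fold changes of the members ran from -0.30 (*Rps21*) to 0.51 (*Rps14*), with a median of 0.19, whereas the median of all tested genes was -0.15. The members' median was thus 0.35 above that of all genes. The members' own median was 0.13 without Tyr-H library 3, and 0.15 to 0.22 without any one of the others. The distance from the median of all genes was 0.34 to 0.36 with each library rescaled to a fixed total, to a fixed total of the other genes or by median ratios. These 3 scalings shift all genes of a library together, so the distance could hardly change under them. After quantile normalization, which can change it, the distance was 0.06. The split moved with the scaling, since 35 higher and 7 lower were found after rescaling to a fixed total, 35 and 6 with the total of the other genes, 65 and 0 with median ratios and 26 and 9 with quantile normalization. In all, 23 members were higher under each of the 18 alternative fits, among them *Rps14*, *Rpsa*, *Rpl19*, *Rpl32*, *Rplp0* and *Rps3*. Mitochondrially encoded genes took 9.25% ± 0.308 of the summed FPKM of the Tyr-L libraries against 13.5% ± 0.296 for Tyr-H (SD, n = 3 each), and their part in these differences was not tested.

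**Figure D1:**
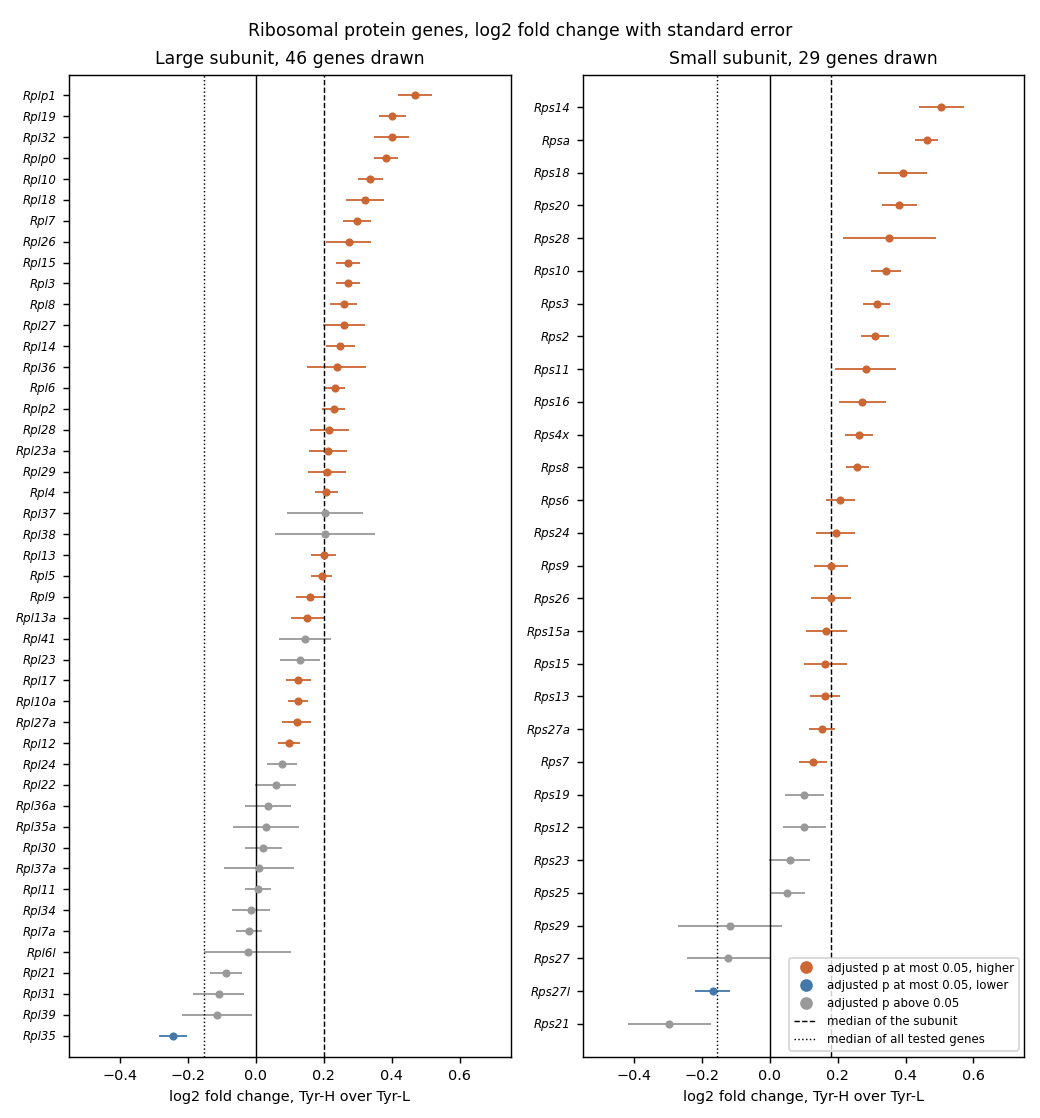
Log2 fold change (Tyr-H over Tyr-L, x axis) of 75 of the 78 ribosomal protein genes (rows), with the standard error (SE) from limma as a bar, for the large subunit (left) and the small subunit (right). Orange points passed as higher (28 and 21 of the genes drawn) and blue points as lower (1 in each), and the dashed subunit medians lie at 0.20 and 0.18, right of the dotted median of all tested genes at -0.15; quantile normalization moved the subunit medians to 0.03 and 0.06.

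Other abundant mRNAs also tended to be higher than the rest of the transcriptome. In the 134 other genes whose mean reached 300 FPKM the median log2 fold change was 0.16, with 53.0% higher and 29.9% lower. Among the 440 others between 100 and 300 FPKM it was -0.05, and among the 4798 others between 1 and 10 FPKM it was -0.19. The ribosomal protein genes had a like median but few lower members, 2.56% against 29.9%, and 65.4% higher against 53.0%. The difference between the members and these genes was not tested.

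**Figure D2:**
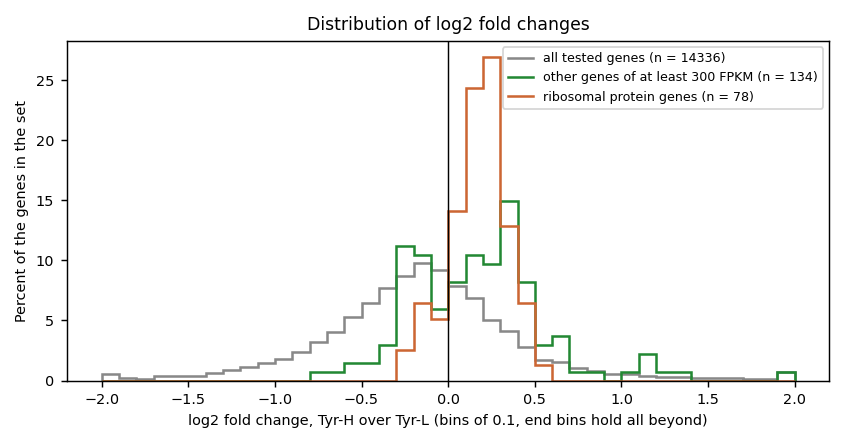
Percent of genes (y axis) in each bin of 0.1 of log2 fold change (x axis), for the 78 ribosomal protein genes, the 134 other genes of at least 300 FPKM and all 14336 tested genes. The ribosomal protein genes lie mostly between 0 and 0.5, while the other abundant genes spread on both sides of 0; the medians are 0.19, 0.16 and -0.15.

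Summed over the members, the ribosomal protein genes took 9.38%, 9.46% and 8.97% of the FPKM of Tyr-L libraries 1, 2 and 3. In Tyr-H libraries 1, 2 and 3 they took 9.86%, 9.98% and 10.5%. The groups did not overlap, with Tyr-H library 3 highest and Tyr-L library 3 lowest, and the means were 9.27% ± 0.262 against 10.1% ± 0.367 (SD, n = 3 each). Pseudogenes marked -ps held 0.88% to 0.987% as much FPKM as the members. Copies with other names were not counted, and reads of single members could be split with any of these copies.

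Large and small subunit genes had medians that lay close together. Of the 47 large-subunit genes 29 were higher and 1 lower, with a median log2 fold change of 0.20. Of the 31 small-subunit genes 22 were higher and 1 lower, with a median of 0.18. Without Tyr-H library 3 the medians were 0.12 and 0.13. The summed FPKM of the large subunit was 1.48 ± 0.0106 times that of the small subunit in Tyr-L, compared with 1.47 ± 0.021 times in Tyr-H libraries (SD, n = 3 each). This ratio was 1.47, 1.47 and 1.49 in Tyr-L libraries 1 to 3 and 1.49, 1.48 and 1.45 in Tyr-H libraries 1 to 3, so the groups overlapped. The ratio of the median FPKM of the large to that of the small subunit did not overlap, at 0.856, 0.860 and 0.818 in Tyr-L against 0.747, 0.757 and 0.740 in Tyr-H libraries, lower in every Tyr-H library. With a correction for GC content and transcript length the medians were 0.24 for the large and 0.33 for the small subunit.

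**Figure D3:**
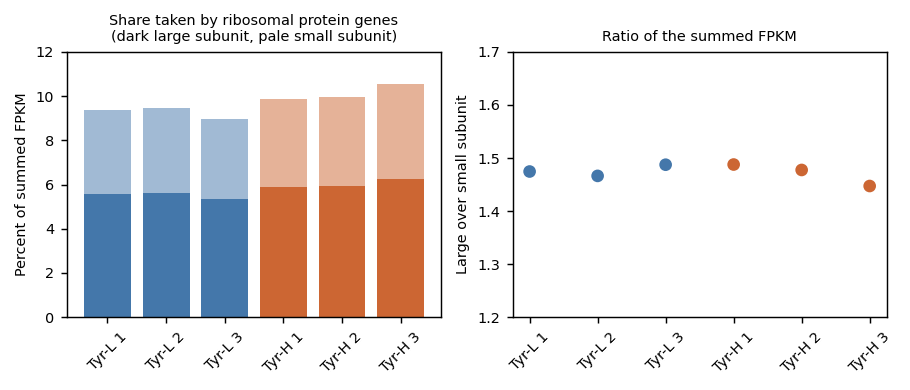
Left, percent of the summed FPKM of each library (y axis from 0) taken by ribosomal protein genes, split into the large subunit (dark) and the small subunit (pale), for 3 Tyr-L (blue) and 3 Tyr-H (orange) libraries. Right, summed FPKM of the large over the small subunit on an axis from 1.2 to 1.7; the share was 8.97% to 9.46% in Tyr-L and 9.86% to 10.5% in Tyr-H libraries, while the ratio stayed between 1.45 and 1.49.

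The reference genes of the subunits were both higher in Tyr-H cells. *Rplp0* (ENSMUSG00000067274; chromosome 5, 115559467 to 115563727, plus strand of GRCm38), which carries the P stalk, had 962, 981 and 952 FPKM in Tyr-L against 1234, 1243 and 1297 FPKM in Tyr-H libraries. By limma it differed by 0.38 on the log2 scale, with an SE of 0.036 and an adjusted p of 2.26e-05, and its mean was 30.4% higher. *Rps3* (chromosome 7, 99477896 to 99483738, minus strand), a protein of the mRNA entry channel with a nuclease role in DNA repair, had 512, 538 and 510 FPKM in Tyr-L against 628, 637 and 676 FPKM in Tyr-H libraries. The log2 fold change was 0.31, with an SE of 0.04 and an adjusted p of 0.000135 from limma. In neither gene did the groups overlap, and an exact permutation test of 3 libraries against 3, two-sided, gave p = 0.1 for each, the smallest p that this design allows. *Rps3* shares its locus with *Snord15a* and *Snord15b*, small nucleolar RNA genes on the same strand, and *Rplp0* overlaps no other annotated gene.

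The P stalk, the flexible arm of the large subunit that recruits the translation factors with GTPase activity, was higher in all 4 of its genes, of which *Rplp0* and *Rplp2* also passed under each other scaling. *Rplp1* had 1573, 1583 and 1479 FPKM in Tyr-L against 2059, 2093 and 2267 FPKM in Tyr-H libraries, the largest log2 fold change of the large subunit (0.47, SE 0.05, adjusted p = 4.24e-05), but under quantile normalization it was at 0.08 and did not pass (adjusted p = 0.233). Its partner *Rplp2* had 311 to 322 FPKM in Tyr-L against 361 to 380 FPKM in Tyr-H libraries (log2 fold change 0.23). *Rpl12*, at the base of the stalk, differed least, with 393 to 407 FPKM against 419 to 433 FPKM (0.10), and its sign turned to -0.05 under quantile normalization. *Rpl12* no longer passed after rescaling to a fixed total (adjusted p = 0.943) or to a fixed total of the other genes (0.67), nor without Tyr-L library 2 or 3 or Tyr-H library 2 or 3, with an adjusted p of up to 0.0992 from limma.

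On the mRNA path of the small subunit all 8 genes listed passed as higher, against 65.4% of all members. After rescaling to a fixed total *Rps9* (adjusted p = 0.0798), *Rps26* (0.12) and *Rps28* (0.0746) did not pass, nor did they with the total of the other genes, and under quantile normalization *Rps9* (0.122) and *Rps26* (0.175) did not. The 3 genes of the entry side were *Rps3* as above, *Rps2* (1058, 1096 and 1015 FPKM in Tyr-L against 1283, 1292 and 1352 FPKM in Tyr-H libraries; log2 fold change 0.31) and *Rps9* (0.18). All 5 genes of the exit side were higher. *Rps14* had 848, 904 and 813 FPKM in Tyr-L against 1126, 1176 and 1348 FPKM in Tyr-H libraries (log2 fold change 0.51, SE 0.067, adjusted p = 0.000179). *Rpsa*, also known as the laminin receptor, was the most evenly measured of them, with 768, 785 and 773 FPKM in Tyr-L against 1065, 1056 and 1083 FPKM in Tyr-H libraries (0.46, SE 0.033, adjusted p = 4.15e-06). *Rps26* was higher by 0.18. Without Tyr-L library 3 neither *Rps9* (adjusted p = 0.0535) nor *Rps26* (0.0868) passed, and *Rps26* did not pass without Tyr-L library 2 either (0.0596). *Rps28* passed narrowly (0.35, SE 0.136, adjusted p = 0.0494), its groups overlapped at 75.3 to 97.4 against 95.6 to 139 FPKM, and it no longer passed without Tyr-L library 2 (adjusted p = 0.0918) or 3 (0.168) or Tyr-H library 2 (0.0536) or 3 (0.123).

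Of the 2 decoding proteins 1 was higher, as was the kinase substrate *Rps6*. *Rps15*, whose tail reaches the site where aminoacyl-tRNA is read, had 581 to 640 FPKM in Tyr-L against 655 to 761 FPKM in Tyr-H libraries (log2 fold change 0.16, adjusted p = 0.0478). It no longer passed without any one of the Tyr-L libraries or without Tyr-H library 3, with an adjusted p of 0.053 to 0.164, and it did not pass under 3 of the 4 other scalings (0.105 to 0.244). *Rps23*, a core protein of the decoding centre, had 421 to 463 against 438 to 509 FPKM and did not pass (0.06, adjusted p = 0.423), and its sign turned under 3 of the 4 other scalings, whereas it passed as higher with median ratios (0.21, adjusted p = 0.0129). *Rps6*, phosphorylated by the S6 kinases, had 973, 957 and 917 FPKM in Tyr-L against 1054, 1089 and 1146 FPKM in Tyr-H libraries (0.21, adjusted p = 0.00252), but did not pass under quantile normalization (0.05, adjusted p = 0.284).

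The exit tunnel, through which the nascent chain leaves the large subunit, was mixed. Of its 7 genes 4 were higher (57.1%, against 65.4% of all members), 1 was lower and 2 passed in neither direction. *Rpl26* (0.27), *Rpl23a* (0.21), *Rpl4* (0.21) and *Rpl17* (0.12) were higher, but none of the 4 passed under quantile normalization, where *Rpl4* and *Rpl17* turned to -0.04 each, *Rpl23a* was at 0.01 and *Rpl26* at 0.09. *Rpl17* also did not pass after rescaling to a fixed total (adjusted p = 0.468) or to that of the other genes (0.292), or without Tyr-L library 3 (0.0585). *Rpl35*, which sits at the mouth of the tunnel near the docking site of the signal recognition particle, had 300, 288 and 281 FPKM in Tyr-L against 241, 236 and 257 FPKM in Tyr-H libraries. It fell by 15.5% (log2 fold change -0.24, SE 0.041, adjusted p = 0.000783), the groups did not overlap, and its direction was the same under every alternative fit, though it did not pass as lower with median ratios (-0.09). It overlaps *Arpc5l* and *Wdr38* on the opposite strand, and whether reads were counted by strand is not given in the sources used here. *Rpl39*, a short protein of the tunnel wall, had 179 to 220 FPKM in Tyr-L against 169 to 220 FPKM in Tyr-H libraries (-0.11, adjusted p = 0.365). *Rpl31* was at 409 to 478 against 396 to 463 FPKM (-0.11, adjusted p = 0.229). Both turned positive with median ratios, whereas *Rpl31* passed as lower under the other 3 scalings (-0.19 to -0.25, adjusted p of 0.00293 to 0.0223).

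*Rpl5* and *Rpl11*, which travel with the 5S RNA as a particle that also binds the p53 ligase MDM2, were counted together, and 1 of the 2 was higher. *Rpl5* had 411, 400 and 403 FPKM in Tyr-L against 465, 459 and 464 FPKM in Tyr-H libraries (log2 fold change 0.19, SE 0.03, adjusted p = 0.000454), but did not pass under quantile normalization (0.05, adjusted p = 0.321). *Rpl11* had 406, 399 and 380 against 386, 393 and 410 FPKM, with a log2 fold change near 0 (adjusted p = 0.921). *Rpl11* passed as lower after rescaling to a fixed total (-0.09, adjusted p = 0.0368) and quantile normalization (-0.13, adjusted p = 0.00465), and as higher with median ratios (0.16, adjusted p = 0.00586). The difference between these genes' changes was not tested.

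**Figure D4:**
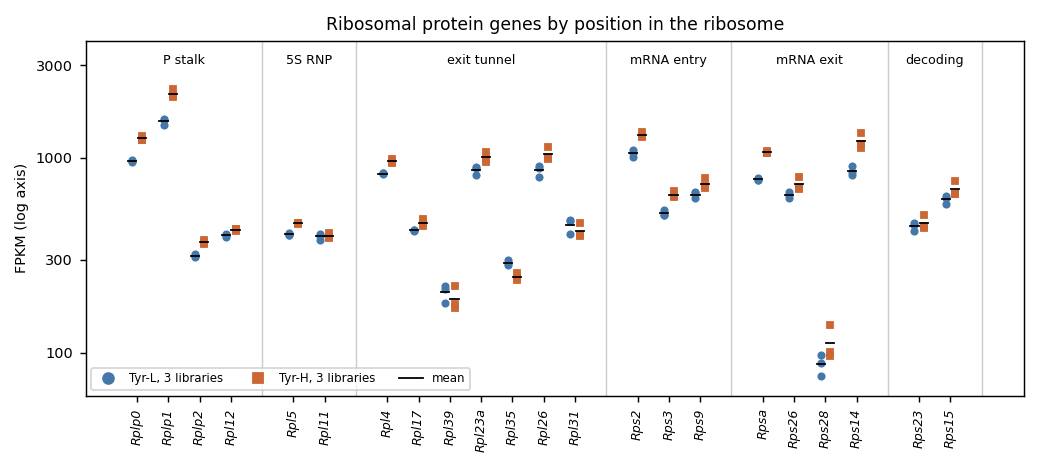
FPKM (y axis, log scale) of ribosomal protein genes grouped by their place in the ribosome, with 3 Tyr-L libraries (blue circles), 3 Tyr-H libraries (orange squares) and group means (black bars). The groups are apart in all P stalk and mRNA entry genes and in 3 of the 4 mRNA exit genes drawn, overlap in *Rps28*, *Rpl11*, *Rpl39*, *Rpl31* and *Rps23*, and are reversed in *Rpl35*.

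Among the other genes with high log2 fold changes were *Rpl19* (0.40) and *Rpl32* (0.40) of the large subunit and *Rps18* (0.39) and *Rps20* (0.38) of the small subunit, all structural proteins of the subunit body or head. *Rpl19* had 835, 840 and 824 FPKM in Tyr-L against 1065, 1087 and 1149 FPKM in Tyr-H libraries. *Rps20*, at 99.3 to 107 against 125 to 143 FPKM, was among the less abundant members. All 4 kept their direction under every alternative fit. At the low end, *Rps21* had 222, 210 and 171 FPKM in Tyr-L against 151, 145 and 197 FPKM in Tyr-H libraries, so the groups overlapped (-0.30, SE 0.122, adjusted p = 0.0633). It passed as lower under 3 of the 4 other scalings, all but median ratios, with an adjusted p of 0.00741 to 0.0319. Of the other low genes, *Rpl21* (-0.09), *Rpl6l* (-0.02), *Rps27* (-0.12), *Rps29* (-0.12) and *Rps25* (0.05) did not pass, and the sign of each turned under at least 1 other scaling. *Rpl21* passed as lower under the other 3 scalings (adjusted p of 0.00259 to 0.0299), *Rps27* passed as lower under quantile normalization (0.0427), and *Rps25* passed as higher with median ratios (0.00616).

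Some members have a related second gene. Of 5 such genes looked for, *Rps27l*, a p53 target gene related to *Rps27*, was found, and *Rpl3l*, *Rpl10l*, *Rpl39l* and *Rps4l* were not listed in any of the tables used here. *Rps27l* had 335, 351 and 314 FPKM in Tyr-L against 279, 297 and 314 FPKM in Tyr-H libraries, that is -0.17 on the log2 scale (SE 0.053, adjusted p = 0.0219), with 1 library of each group at nearly the same value. With the correction for GC content and transcript length its sign turned (0.05), with median ratios it did not pass (-0.01, adjusted p = 0.83), and it no longer passed without any one of Tyr-L libraries 1 and 2 and Tyr-H libraries 1 and 2, with an adjusted p of 0.0579 to 0.0826. Its relative *Rps27*, a zinc finger protein of the small subunit, had 365 to 474 against 350 to 473 FPKM and did not pass (adjusted p = 0.421). Of the other related genes, *Rpl3* (0.27), which lies close to the peptidyl transferase centre, *Rpl10* (0.34) and *Rps4x* (0.26) were higher, and *Rpl39* was not. Where the sequences of such genes are close, reads could be split between them, which was not tested.

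Ribosomal protein genes whose variants cause Diamond-Blackfan anaemia, a failure of red cell production, were counted as a further list. Of 11 such genes 6 were higher and none passed as lower, *Rps10* (0.34), *Rpl26*, *Rps24* (0.19), *Rpl5*, *Rps26* and *Rps7* (0.13) being the 6. That is 54.5% higher, against 65.4% of all members and 17.9% of all tested genes. Without Tyr-L library 3 *Rps24* (adjusted p = 0.0615) and *Rps7* (0.103) did not pass, nor did *Rps7* without Tyr-L library 2 (0.0591) or Tyr-H library 3 (0.0626), and *Rps24* turned to -0.03 under quantile normalization. Both also did not pass after rescaling to a fixed total (0.0718 and 0.425) or to that of the other genes (0.0547 and 0.277), and *Rps7* did not under quantile normalization (0.661). *Rps19*, the gene most often affected, had 373, 387 and 347 FPKM in Tyr-L against 367, 403 and 420 FPKM in Tyr-H libraries (0.10, adjusted p = 0.15), passed as higher with median ratios (0.26, adjusted p = 0.00324) and turned to -0.02 under quantile normalization. *Rpl35a* (0.03), *Rpl11* and *Rps29* did not pass either.

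The size of the difference and its precision both went with the coding length of the gene. Of the 19 members with a coding length of at least 600 nt, 18 were higher and none lower, with a median log2 fold change of 0.26. Of the 16 from 450 to 600 nt 13 were higher, and of the 32 from 300 to 450 nt 19 were higher and 1 lower. Of the 10 under 300 nt, 1 was higher (*Rps28*) and 1 lower (*Rps27l*), with a median of -0.05. Over the 77 members with a coding length, Spearman's rank correlation with the log2 fold change was 0.40 for coding length, 0.49 for mean FPKM and 0.32 for GC content, where all points share the same 6 libraries and these properties go with each other. The other genes of at least 10 FPKM went the opposite way, with a median of -0.04 for 211 genes under 300 nt and -0.17 for 3048 genes of at least 1200 nt.

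The short members also varied more between libraries, gene by gene, than the long ones, with a median SE of 0.117 against 0.036. The rank correlation between the SE and coding length was -0.79. Within Tyr-H, the 10 short members lay at a median log2 deviation from the group mean of -0.16 in library 1, -0.12 in library 2 and 0.27 in library 3, and within Tyr-L at 0.14, 0.04 and -0.18 in libraries 1 to 3. All 10 were above the group mean in Tyr-H library 3 and all 10 below it in Tyr-L library 3. The 19 long members deviated by -0.03 to 0.04. Other short genes of at least 10 FPKM moved the same way in each library, but less, by -0.05 to 0.06. At the estimated depth, counting error for the short members was 1.32% to 4.10% of their level, whereas their coefficient of variation between libraries had a median of 10.9% in Tyr-L against 17.4% in Tyr-H. *Rps27* and *Rps21*, for example, were 0.28 and 0.27 above their group mean in Tyr-H library 3. What set this spread was not tested.

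**Figure D5:**
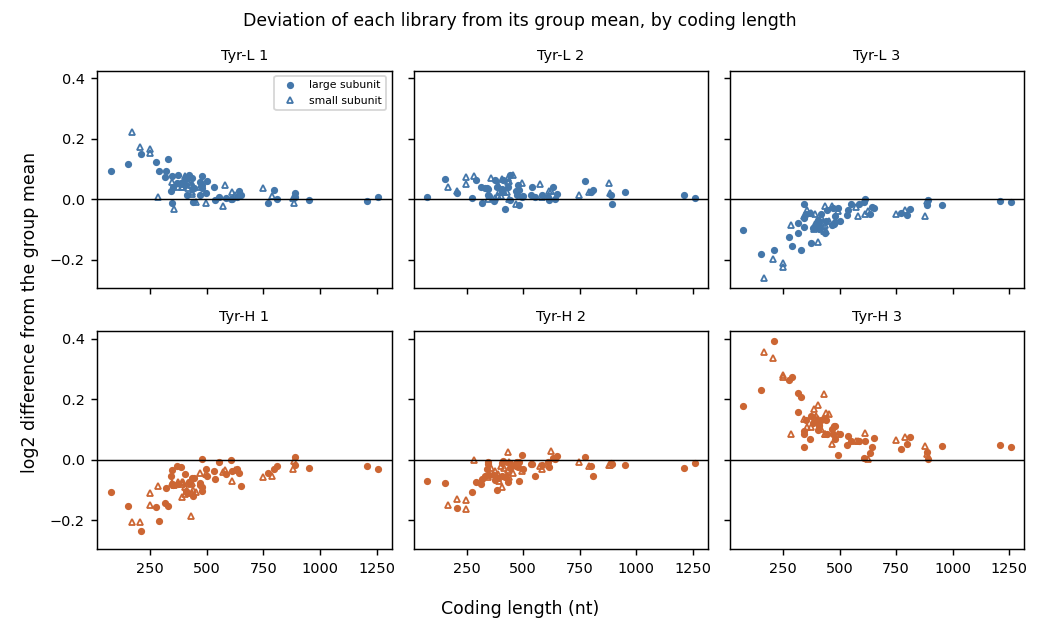
Log2 difference of each ribosomal protein gene from its group mean (y axis) against coding length in nt (x axis), in 6 panels for the libraries, with large-subunit genes as filled circles and small-subunit genes as open triangles. Genes under 300 nt fan out upwards in Tyr-L 1 (median 0.14) and Tyr-H 3 (0.27) and downwards in Tyr-L 3 (-0.18), Tyr-H 1 (-0.16) and Tyr-H 2 (-0.12), while genes over 600 nt stay near 0.

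Of the 45 members that overlap another annotated gene, 32 were higher and 1 lower, with a median of 0.21, and of the 33 that do not, 19 were higher and 1 lower, with a median of 0.17. A small nucleolar RNA gene named Snora or Snord lies on the same strand in 23 members, such as *Snora62* in *Rpsa* and *Snora7a* in *Rpl32*, and 19 of these were higher. Members with and without the pyrimidine run shown above were also counted. Of the 13 members with the run at the annotated start, 8 were higher and 1 lower, with a median of 0.21, and of the 44 without it 27 were higher and 1 lower, with a median of 0.16. Neither difference was tested. Of all members 65.4% were higher and 2.56% lower, against 17.9% and 39.9% of all tested genes.

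Other genes of the same system were counted from lists. Of 7 ribosomal proteins or ribosome partners that the naming rule does not take, *Rack1*, a scaffold on the small subunit, and *Fau*, made as a fusion with a relative of ubiquitin, were among 3 that were higher. *Rack1* had 697, 723 and 697 FPKM in Tyr-L against 982, 980 and 1011 FPKM in Tyr-H libraries (log2 fold change 0.49). *Rps3a1* and *Rpl7l1* were lower (-0.13 each) but turned to 0.02 each with median ratios, and *Rpl36al* and *Rpl22l1* did not pass.

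Of 19 elongation factors and other mRNAs of the TOP class 11 were higher and 5 lower, with a median of 0.18. *Eef2*, the translocation factor, had 784, 810 and 801 FPKM in Tyr-L against 1099, 1104 and 1130 FPKM in Tyr-H libraries (0.48). *Eef1a1*, which delivers aminoacyl-tRNA, had 4365 to 4413 against 5636 to 5783 FPKM (0.38), though only 0.03 under quantile normalization, and *Tpt1* differed by 0.44. The 5 lower were *Hnrnpa1* (-0.59), *Eif3m* (-0.21), *Npm1* (-0.18), *Nap1l1* (-0.11) and *Naca* (-0.10), but with median ratios *Nap1l1* turned to 0.04 and *Naca* to 0.05, and *Npm1* was at -0.02.

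Of 14 TOP binding proteins and members of the mTORC1 pathway 9 were lower and 1 was higher, with a median of -0.19, close to that of all tested genes (-0.15). One of the 9, *Cnbp* (-0.12), turned to 0.04 with median ratios. There *Larp4* was at -0.07, *Mlst8* at -0.05 and *Rptor* at -0.02, and the rest of the 9 ran from -0.43 (*Eif4ebp2*) to -0.16 (*Eif4e*). The one higher was *Eif4ebp1*, a repressor of initiation that binds eIF4E and is phosphorylated by mTORC1, with 36.5, 42.4 and 39.6 FPKM in Tyr-L against 118, 126 and 138 FPKM in Tyr-H libraries (1.68, SE 0.067), the only gene of these pathway lists called by fold. *Eif4ebp2* (-0.59), *Tia1* (-0.56), *Rps6kb1* (-0.45), *Larp4b* (-0.39) and *Eif4e* (-0.31) were among the lower genes. *Larp1* (-0.04, adjusted p = 0.425) and *Mtor* (0.03, adjusted p = 0.713) did not pass.

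Of 12 chaperones and export factors of ribosomal proteins 3 were higher (*Mrto4*, *Sbds* and *Eif6*, 0.15 to 0.21), 2 were lower and 7 passed in neither direction. The lower ones were *Heatr3* (-0.13, turning to 0.02 with median ratios) and *Nmd3*, the export adaptor of the large subunit, with 43.0, 42.5 and 48.8 FPKM in Tyr-L against 28.1, 29.8 and 31.1 FPKM in Tyr-H libraries (-0.59). Of 8 ribosome quality control genes 2 were higher, *Zfp598* (0.50), which marks collided ribosomes, and *Ascc3* (0.38), and 6 were lower, with *Nemf* lowest at -0.62. With median ratios *Hbs1l* (-0.14) and *Rnf10* (-0.13) turned to 0.01 and 0.02. There *Ltn1* and *Usp10* (-0.24 each) were at -0.09 each, *Pelo* at -0.14 and *Nemf* at -0.46. Of all tested genes 39.9% were lower, so the counts of lower genes in all these lists are to be read against that share, and of higher genes against 17.9%.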

How the data were processed

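Per the labels, total RNA of 3 Tyr-L and 3 Tyr-H samples was extracted with TRIzol and made into mRNA libraries with a VAHTS kit. Reads of 150 bp were sequenced from both ends. The submitters' processing notes name Trimmomatic, HISAT2 and GRCm38.p6. Versions, annotation, quantifier and use of strand are not given in the sources used here. The authors deposited 1 FPKM table per library, and unlisted genes were set to 0.

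Genes with a mean of 0.1 FPKM or more (14336) were compared on log2(FPKM + 0.1) by limma 3.58.1 in R 4.3.3 (lmFit, eBayes with trend, Benjamini-Hochberg), without a replicate block. Means and SD are of FPKM. Depth was estimated from the most common product of FPKM and transcript length among low values. Lengths, GC content and overlaps came from GENCODE M21, promoters from RefSeq. On simulated data with 14336 genes, 99 of 100 genes changed by 1.5 and 79 of 100 changed by 0.5 (log2) were recovered, and 5 unchanged genes were called by fold. Noise was drawn for each gene on its own, without deviations shared by genes of a library. Smaller changes, such as the members' median of 0.19, were not simulated.

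The members and lists were chosen with earlier results of these data known. Named were *Rplp0*, *Rps3*, the 5 highest and 5 lowest log2 fold changes of each subunit (mean of at least 1 FPKM), the 3 highest levels of each subunit, the role lists, members with a printed sequence, and pathway genes where called or counted. A few genes that this rule takes are in every count, median and sum but are not reported singly here. *Snora62* and *Snora7a* were chosen after their hosts' values were seen. Alternatives were other pseudocounts, filters and scalings, no variance trend, a replicate block, a GC and length correction, each library left out, and members without overlaps.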

Additional observations from a re-analysis of the deposited data

How the results depend on the processing

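Sign changes are given for the members named in the report, and others are covered by the counts of members with a log2 fold change above 0, which was 67 as reported. No member was called by fold and adjusted p under any of the 18 alternative fits. Pseudocounts of 0.01 and 1 and a mean of at least 1 FPKM turned no sign and changed no count by over 1.5 times. Without a variance trend 34 members were higher in place of 51, and without a filter on low values 42, with 1 lower in place of 2 in both. Rescaling each library to 1000000 gave 57 above 0, 7 lower and medians of 0.0991 for all members, 0.105 for the large and 0.0869 for the small subunit, and turned *Rps25* (-0.0419), *Rpl11* (-0.0896), *Rps23* (-0.0351) and *Rpl35a* (-0.0651). The total of the other genes gave 58 above 0, 6 lower, medians of 0.11, 0.12 and 0.10, and turned *Rps25* (-0.0282), *Rpl11* (-0.0759), *Rps23* (-0.0214) and *Rpl35a* (-0.0514). Median ratios gave 75 above 0, 0 lower, medians of 0.35, 0.35 and 0.34, and turned *Rpl39* (0.0392), *Rpl31* (0.0434), *Rpl21* (0.0663), *Rpl6l* (0.121), *Rps27* (0.0321) and *Rps29* (0.0357). By construction these 3 scalings shift all genes of a library together.

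Quantile normalization gave 52 above 0, 26 higher in place of 51, 9 lower, medians of 0.0397, 0.0341 and 0.0598, and a share of the summed FPKM 0.443 percentage points higher in Tyr-H in place of 0.858. It turned *Rpl6l* (0.146), *Rps25* (-0.0562), *Rpl12* (-0.0472), *Rpl11* (-0.128), *Rpl4* (-0.0392), *Rpl17* (-0.0418), *Rps23* (-0.0873), *Rps19* (-0.018), *Rps24* (-0.0284) and *Rpl35a* (-0.107). The correction for GC content and transcript length gave 72 above 0, medians of 0.30 for all members and 0.33 for the small subunit and turned *Rpl39* (0.0306), *Rpl6l* (0.0528) and *Rps27l* (0.0484). The cause was not tested. Replicate numbers share only a name, since same-numbered libraries deviated with correlations of 0.02, 0.01 and -0.08 over genes, and not every library correlated best with its own number. With the numbers as a replicate block 41 members were higher, all among the 51, and 2 lower; the block with the GC and length correction gave the same 72 above 0 and medians of 0.30 and 0.33 and turned *Rpl39* (0.0306), *Rpl6l* (0.0528) and *Rps27l* (0.0484). Members without overlapping genes had a median of 0.17.

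With each library left out in turn, 58 to 69 members were above 0, 38 to 56 members were higher and 1 to 6 lower, the medians were 0.13 to 0.22 for all members, 0.12 to 0.21 for the large and 0.13 to 0.22 for the small subunit, and the difference in share was 0.649 to 0.993 percentage points. Of the named members the sign turned in *Rpl6l* (-0.106 to 0.0600), *Rpl11* (-0.0223 to 0.0248), *Rpl35a* (-0.0747 to 0.106), *Rps25* (-0.00183 to 0.0883) and *Rps23* (-0.0082 to 0.0996). The files hold no counts, and 3 libraries a group limit the precision of members under 300 nt most.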
